A study of Homo sapiens with 6 samples.

Results

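The genes described here are those of cholesterol synthesis and sterol handling, read across 6 RNA sequencing libraries of 3 human cell lines. They were chosen by symbol from a list of 29 that follows the pathway: the enzymes from acetoacetyl-CoA to the last sterol reductase, the regulators of the SREBP transcription factors, and the proteins that move cholesterol inside and out of the cell. Of the 29, 28 were found by symbol among the 19903 genes of each deposited table, and 27 of these had a mean level of at least 1 FPKM and entered the tests over 12182 protein-coding genes. FPKM is the number of fragments scaled to transcript length and to library size, and log2 ratios are of FPKM+1, which understates differences of low genes. SC5D, a sterol desaturase, was not listed under that symbol. The same Entrez gene appeared under the older symbol SC5DL, at 4.67 to 8.44 FPKM in A549 and H1299 and at 19.5 FPKM (empty vector) and 19.7 FPKM (malin) in the H2030-labelled pair, and it is outside all counts. ABCG1 was the 1 gene found that did not reach the filter.

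The cells were the lung cancer lines A549 and H1299 and a line labelled H2030, all at passage 5 and from ATCC. Each line was studied with an empty vector and with overexpression of NHLRC1, which encodes malin, an E3 ubiquitin ligase of glycogen metabolism. Every combination of line and vector had 1 library, so each group held 3 libraries, and replication exists only across lines. The promoter of the vector, and whether the cells were clones or pools, are not given in the sources used here, and nothing says whether the 2 cultures of a line were grown independently. In bulk RNA, fewer cells of a type and less RNA per cell cannot be told apart.

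Cholesterol is built from acetyl-CoA in the endoplasmic reticulum and cytosol, first through mevalonate to farnesyl diphosphate, then through squalene and lanosterol. When membrane sterol is low, the escort protein SCAP carries SREBP to the Golgi, where it is cut to release a transcription factor that switches on the enzymes of the pathway. When sterol is high, INSIG proteins hold SCAP in the endoplasmic reticulum, and oxysterols activate the LXR receptors, which switch on export through ABCA1 and ABCG1. INSIG1 is itself a target of SREBP, so its messenger RNA is often read together with those of the enzymes.

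The gene delivered by the vector was measured first, as a check of the labels. NHLRC1 measured 1.21 FPKM (empty vector) and 6.82 FPKM (malin) in A549, at 2.85 and 119.2 FPKM in H1299, and at 0.18 and 3.69 FPKM in the H2030-labelled pair. In every line the library with malin had more of it. Estimated depth was 8250000 to 10700000 fragments per library. The FPKM column of the H2030-labelled malin library carries, in its heading, an abbreviation of HEK293T, an embryonic kidney line, whereas its labels and the header of its empty-vector partner say H2030. The 5 lung epithelium markers summed to 5.97 and 5.59 FPKM in that pair and to 0.51 to 0.79 FPKM in the other 4 libraries. Of these, the lung transcription factor gene NKX2-1 measured 1.85 and 3.78 FPKM in that pair, SFTA3 2.76 and 1.24 FPKM and NAPSA 1.36 and 0.46 FPKM, and the surfactant gene SFTPC was at 0.11 FPKM or less in all 6 libraries. The 5 carcinoma surface genes examined (TM4SF1, ITGA3, S100A6, ANXA1 and CAV1) summed to 69.5 and 23.9 FPKM in that pair and to 944.4 FPKM or more in each of the others, and 5 embryonic kidney and neuronal-type genes to 68.6 and 101.7 FPKM, against 8.82 to 10.6. The pair is called by its label throughout, and the part of a mismatch between its 2 libraries in any difference between them was not tested. The 6 epithelium markers summed to 183.1 and 158.7 FPKM in the H2030-labelled pair and to 952.1 FPKM or more elsewhere. Of these, EPCAM alone was highest in that pair (8.55 and 5.41 FPKM). Endothelial markers summed to at most 0.53 FPKM and leukocyte markers to at most 5.08 FPKM. Fibroblast markers summed to 12.0 and 15.2 FPKM in the H2030-labelled pair and to at most 2.31 FPKM elsewhere.

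Promoter sequences of 4 members are shown because SREBP is known to act at the promoters of such genes. The windows are from RefSeq on GRCh38.p14 and run from 250 bases before to 50 bases after a gene start, on the strand of the transcript. Capitals mark matches, on either strand, to 4 motifs: TCACNCCAC (the sterol regulatory element), TCACGTGA (an E-box form of it), CCAAT (bound by NF-Y, a known partner of SREBP) and GGGCGG (bound by SP1). INSIG1, HMGCS1 and IDI1 were taken for their differences in the H2030-labelled pair, and SREBF2 was added after the search because it was the 1 member with the sterol regulatory element in this form. HMGCS1 has 2 listed windows and IDI1 has 3, of which the 1 with most CCAAT matches is given. The INSIG1 window is chr7:155297628-155297927 on the plus strand, the HMGCS1 window chr5:43313363-43313662 on the minus strand, the IDI1 window chr10:1048837-1049136 on the minus strand, and the SREBF2 window chr22:41832855-41833154 on the plus strand.
INSIG1: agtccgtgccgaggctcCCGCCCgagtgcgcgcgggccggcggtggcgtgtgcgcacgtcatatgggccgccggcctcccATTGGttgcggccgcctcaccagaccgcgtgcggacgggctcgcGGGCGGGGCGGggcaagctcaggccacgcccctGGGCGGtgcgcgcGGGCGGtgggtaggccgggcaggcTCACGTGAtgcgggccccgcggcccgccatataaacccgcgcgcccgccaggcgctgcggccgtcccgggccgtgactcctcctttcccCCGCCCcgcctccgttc
HMGCS1: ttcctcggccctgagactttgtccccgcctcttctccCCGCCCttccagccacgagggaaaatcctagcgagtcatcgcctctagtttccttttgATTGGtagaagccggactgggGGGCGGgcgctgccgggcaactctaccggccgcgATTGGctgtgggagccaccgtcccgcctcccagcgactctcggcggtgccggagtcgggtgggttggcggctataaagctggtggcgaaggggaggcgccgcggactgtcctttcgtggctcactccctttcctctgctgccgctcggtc
IDI1: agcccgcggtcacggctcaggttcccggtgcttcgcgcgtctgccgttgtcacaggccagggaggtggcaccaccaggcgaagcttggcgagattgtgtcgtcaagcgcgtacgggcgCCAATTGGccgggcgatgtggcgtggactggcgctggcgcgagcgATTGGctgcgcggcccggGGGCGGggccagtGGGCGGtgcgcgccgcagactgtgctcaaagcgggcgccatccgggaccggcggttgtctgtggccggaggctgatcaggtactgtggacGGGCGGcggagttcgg
SREBF2: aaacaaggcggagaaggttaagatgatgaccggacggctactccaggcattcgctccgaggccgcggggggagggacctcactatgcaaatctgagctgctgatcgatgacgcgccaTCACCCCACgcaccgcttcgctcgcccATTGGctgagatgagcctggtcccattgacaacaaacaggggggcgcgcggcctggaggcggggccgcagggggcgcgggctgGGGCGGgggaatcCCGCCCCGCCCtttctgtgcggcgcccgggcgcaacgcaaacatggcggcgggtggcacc

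INSIG1 holds the E-box form, beginning 56 bases before the gene start, with 1 CCAAT match on the opposite strand and 6 SP1 matches, 2 of which overlap. The HMGCS1 window has 2 CCAAT matches, beginning 155 and 100 bases before the start, and the IDI1 window has 3, 2 of them overlapping. SREBF2 has the match TCACCCCAC beginning 133 bases before the start, followed by 1 CCAAT match. Windows were listed for 24 of the 28 members, all except ACAT2, FDFT1, SQLE and ABCG1. Of the 30 windows of members, 60% held CCAAT, against 34.9% of the 14827 windows of genes tested and 34.6% of all 35116 promoters. GGGCGG was in 93.3% of members' windows, against 66.8% of those of genes tested and 45% of all. TCACNCCAC and TCACGTGA were each in 1 window of the members (3.33%), against 1.01% and 1.73% of the windows of genes tested and 1.13% and 0.98% of all promoters. These matches describe letters in short windows, and a lack of a match says nothing about binding of a factor.

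Across the 3 lines together, 0 of the 27 members passed the test for a difference between malin and empty vector (limma with the line as a block, Benjamini-Hochberg adjusted p of at least 0.927 for each). Over all 12182 genes the test also passed 0 (0%). An unadjusted p under 0.05 was reached by 1 member, INSIG1 (limma, unadjusted p = 0.0379, adjusted p = 0.927), and by 1.75% of all genes. Of the 27 members, 9 were higher with malin in all 3 lines, against 11% of all genes, and 0 were lower in all 3, against 11.3%. These 9 were HMGCS1, IDI1, SQLE, CYP51A1, NSDHL, DHCR7, INSIG1, SREBF2 and NPC2. INSIG1 alone of them had a counting interval above 1 in each line, and NSDHL and DHCR7 had ratios of 1.002 and 1.001 in A549, within counting error. The median of the members' mean log2 difference was 0.15, against -0.0071 over all genes tested. The fit leaves 2 residual degrees of freedom, so the lack of calls bounds little, and the lines differed widely in size of difference.

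**Figure D1:**
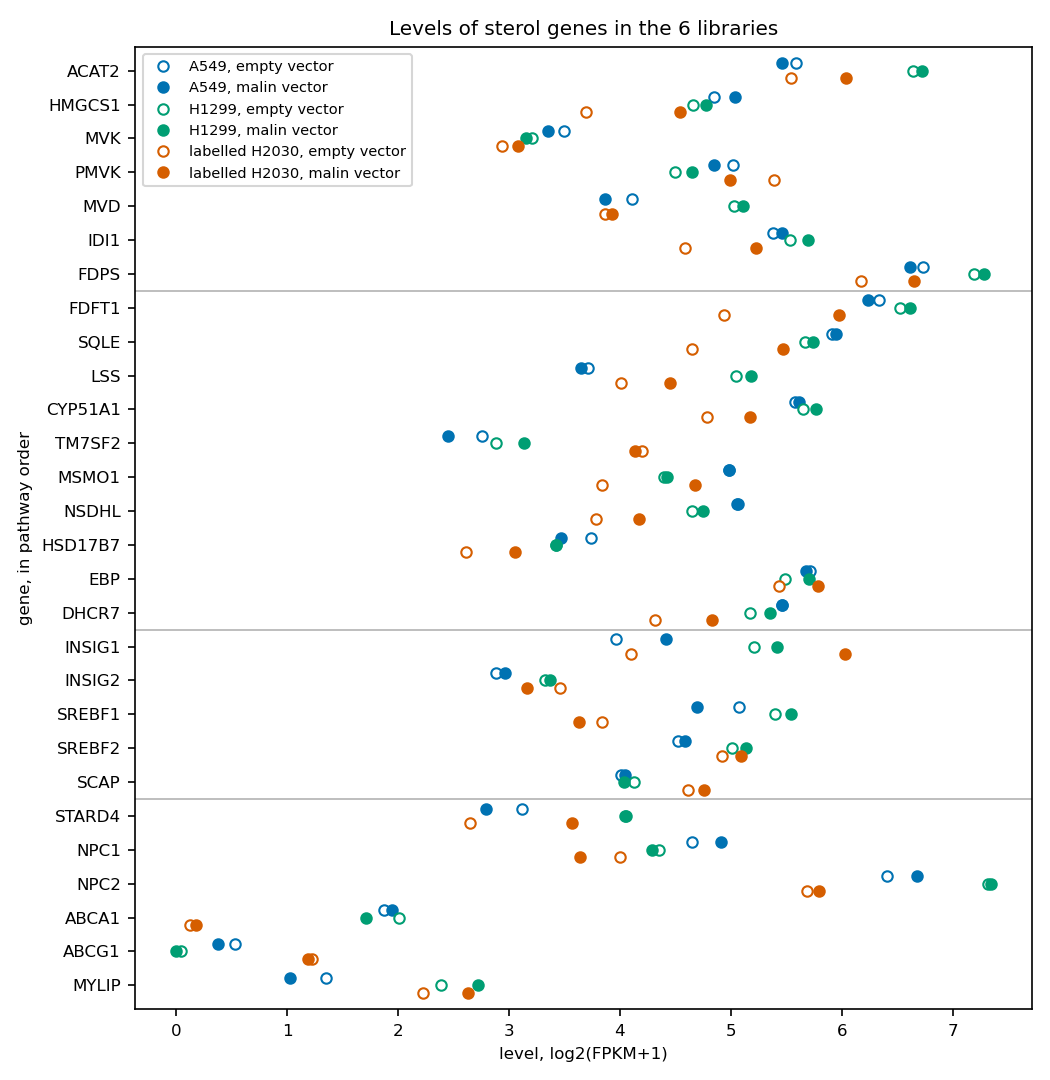
Level of each gene found, as log2(FPKM+1), in the 6 libraries, with open circles for the empty vector and filled circles for malin; grey lines separate mevalonate steps, squalene and sterol steps, SREBP regulators, and transport and export. The open circles of the H2030-labelled pair lie lowest for 13 of the 17 synthesis enzymes, and its filled circles lie to their right for 15 of 17.

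In the H2030-labelled pair most enzymes were higher with malin. Of the 27 members, 22 were higher (45.9% of all genes tested) and 5 lower (53.2%). On the FPKM+1 scale 7 were higher by a factor of 1.5 or more, against 4.28% of all genes. By the same factor 0 of 27 were lower, against 7.33% of all genes. Past 2-fold, 2 were higher, FDFT1 and INSIG1 (0.484% of all genes), and 0 lower (1.6%). The 7 were INSIG1, FDFT1, STARD4, HMGCS1, MSMO1, SQLE and IDI1. The median log2 ratio of the members was 0.39, against -0.027 over all genes. There is no replicate of either vector within a line, so these counts have no replicate check.

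In H1299 the same genes differed little but mostly in 1 direction. Of the 27 members, 22 were higher with malin, 4 were lower and HSD17B7 was at 9.71 FPKM with both vectors, where 51.5% of all genes were higher and 46.7% lower. By at least 1.5-fold 0 members differed (0.328% of all genes were higher and 0.148% lower by that much, and 0.0575% and 0.0246% past 2-fold). The median log2 ratio was 0.089, against 0.005 over all genes, and the largest, 0.34, was that of MYLIP. In A549, 13 members were higher and 14 lower with malin, where 49.5% of all genes were higher and 48.8% lower. Again 0 members differed by 1.5-fold, where 0.542% of all genes were higher and 0.583% lower by that much, and the median was -0.0036, against 0 over all genes.

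**Figure D2:**
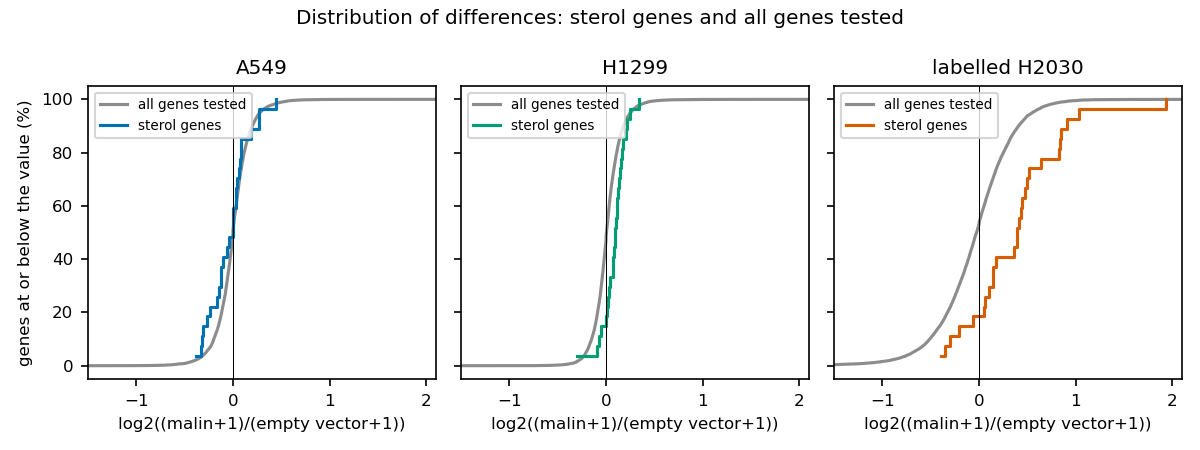
Cumulative share of genes (%) at or below each log2((malin+1)/(empty vector+1)) in A549, H1299 and the H2030-labelled pair, for the 27 sterol genes (coloured steps) and the 12182 genes tested (grey). The coloured steps follow the grey curve in A549, stand slightly to its right in H1299 (medians 0.089 and 0.005) and farther to its right in the H2030-labelled pair (medians 0.39 and -0.027).

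To set these ratios beside counting error, fragment numbers were estimated from the FPKM, the transcript length and the estimated depth, and each ratio was given a 95% exact binomial interval. The interval covers counting error only, not differences between cultures. In H1299 it lay above 1 for 10 of the 27 members and below 1 for 1, against 6.29% and 5.59% of 11963 genes with a transcript length. In the H2030-labelled pair it lay above 1 for 16 and below 1 for 4, against 24.3% and 29.4%. In A549 the counts were 4 and 6, against 10% and 8.73%. Members carry more fragments than most genes (median 876 against 346 in the H1299 empty-vector library, 668 against 326 in A549 and 398 against 315 in the H2030-labelled pair), so their intervals exclude 1 more readily.

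**Figure D3:**
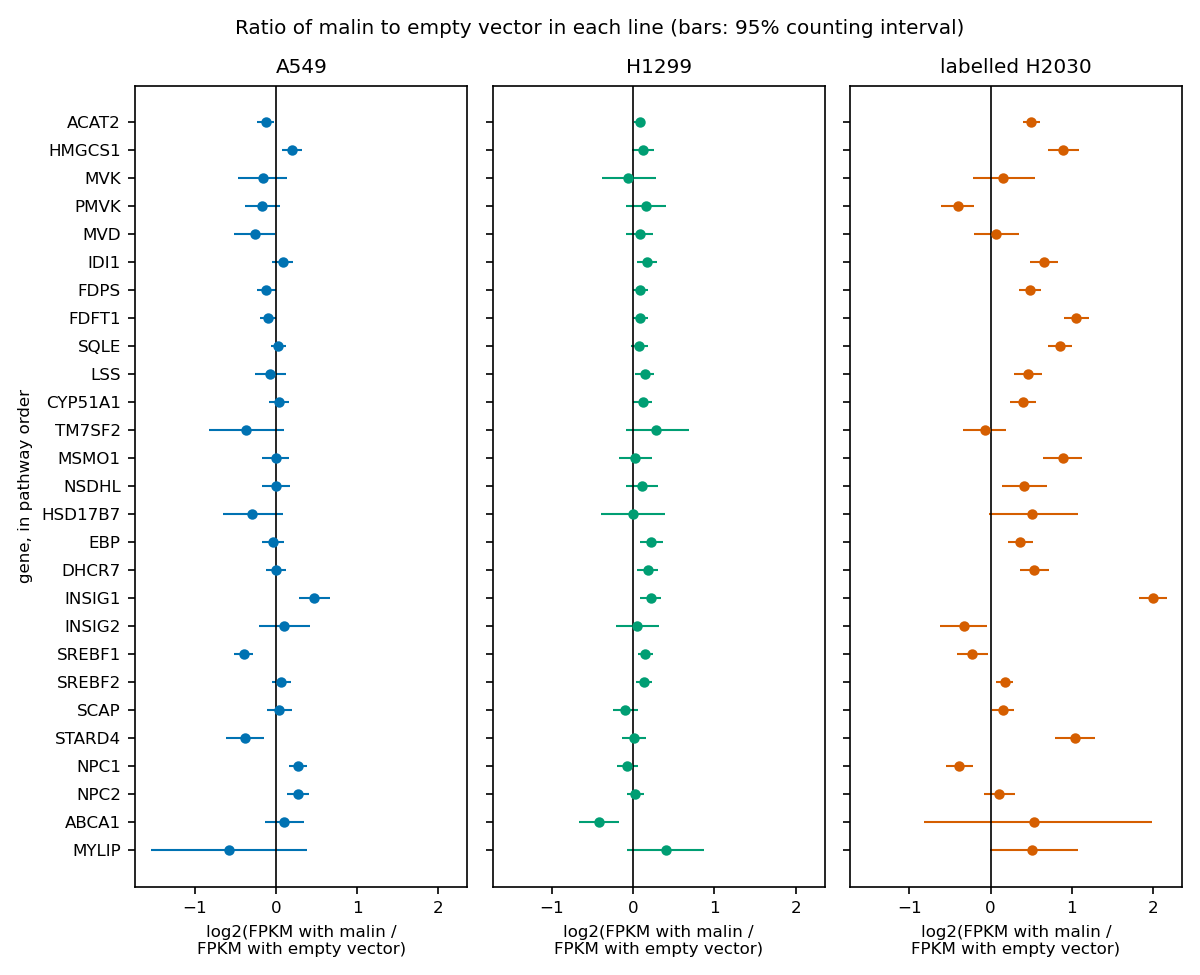
Ratio of FPKM with malin to FPKM with the empty vector, on a log2 axis, for the 27 genes in each line; points are single ratios and bars the 95% counting interval. INSIG1 stands farthest to the right in the H2030-labelled pair (ratio 3.998), while all points of H1299 lie between ratios of 0.749 and 1.33.

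The mevalonate steps came first in the pathway and were read in that order. ACAT2, the cytosolic thiolase that makes acetoacetyl-CoA, measured 47.0 FPKM (empty vector) and 43.1 FPKM (malin) in A549, at 99.0 and 104.5 in H1299, and at 45.6 and 64.5 in the H2030-labelled pair. HMGCS1, the cytosolic synthase of the next step, stood at 27.9 and 31.9 FPKM, 24.2 and 26.3 FPKM, and 12.0 and 22.3 FPKM in the same order. Its H2030-labelled empty-vector library was the lowest of the 6, and malin was the higher library in each line, with ratios of 1.15, 1.09 and 1.86 (interval 1.64 to 2.13). Its mean log2 difference was 0.38 ± 0.16 (limma's moderated SE, n = 3 pairs; adjusted p = 0.927), and 0.15 without the H2030-labelled pair. MVK, mevalonate kinase, was the lowest of the 7 genes in every library, at 6.67 to 10.3 FPKM, and its interval included a ratio of 1 in each line. 

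PMVK, the kinase that follows, went the other way in the H2030-labelled pair. It stood at 31.4 and 27.9 FPKM in A549, 21.5 and 24.0 FPKM in H1299, and 40.9 and 30.9 FPKM in that pair, a ratio of 0.755 (interval 0.653 to 0.872). It was the 1 synthesis enzyme of 17 with an interval below 1 there. MVD, the decarboxylase that yields isopentenyl diphosphate, had 13.5 and 14.2 FPKM in that pair, 16.2 and 13.6 FPKM in A549, and 31.7 and 33.6 FPKM in H1299. Its levels separated H1299 from the other lines far more than they separated the vectors. IDI1, the isomerase of isopentenyl diphosphate, stood at 40.7 and 43.2 FPKM in A549, 45.2 and 50.9 FPKM in H1299, and 23.1 and 36.6 FPKM in the H2030-labelled pair, where the ratio was 1.58 (interval 1.41 to 1.79). FDPS, which makes farnesyl diphosphate, the branch point to sterols and prenyl groups, had the highest level of the 17 enzymes in every library. Its values were 105.2 and 96.8 FPKM in A549, 145.1 and 154.4 FPKM in H1299, and 71.2 and 99.6 FPKM in the H2030-labelled pair.

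Among the squalene and sterol steps the largest ratio of the H2030-labelled pair was at the entry. In A549 and in H1299 TM7SF2 had the largest log2 difference of these 10 genes (-0.31 and 0.25). Its intervals there included a ratio of 1 (0.567 to 1.073 and 0.938 to 1.605). FDFT1, squalene synthase, which commits farnesyl diphosphate to sterols, stood at 79.7 and 74.3 FPKM in A549, 91.1 and 97.0 FPKM in H1299, and 29.7 and 61.7 FPKM in the H2030-labelled pair. Its ratio of 2.08 (interval 1.88 to 2.31) was the largest of any enzyme in that pair, while in A549 the malin library was the lower. SQLE, squalene epoxidase, an oxygen-dependent control point, stood at 59.3 and 60.6 FPKM, 49.9 and 52.5 FPKM, and 24.0 and 43.4 FPKM. MSMO1, the methylsterol monooxygenase, stood at 30.7 and 30.6 FPKM, 20.1 and 20.4 FPKM, and 13.3 and 24.6 FPKM. For both genes the 2 libraries of A549 and of H1299 lay within counting error of each other, and the H2030-labelled pair had ratios of 1.80 (interval 1.63 to 1.998) and 1.85 (interval 1.57 to 2.18).

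Of the other 7 genes of these steps, 5 had smaller ratios, above counting error, in the H2030-labelled pair. LSS, lanosterol synthase, was at 15.1 and 20.9 FPKM, CYP51A1, the lanosterol demethylase, at 26.5 and 35.2 FPKM, and DHCR7, the reductase that completes cholesterol, at 18.9 and 27.4 FPKM. NSDHL, a dehydrogenase of the demethylation complex, was at 12.8 and 17.1 FPKM and EBP, the sterol isomerase, at 42.1 and 54.3 FPKM. These 5 ratios ran from 1.29 (EBP) to 1.45 (DHCR7), each with an interval above 1. HSD17B7, the reductase of the same complex, was at 5.13 and 7.33 FPKM with an interval of 0.986 to 2.11, and a closely similar pseudogene makes its value uncertain. TM7SF2, a sterol reductase, was at 17.4 and 16.6 FPKM, so that it was the 1 gene of these 10 that was lower with malin in that pair. In H1299, EBP (44.0 and 51.3 FPKM), DHCR7 (35.2 and 39.8), LSS (32.0 and 35.2) and CYP51A1 (49.3 and 53.5) were higher with malin beyond counting error, by ratios of 1.17, 1.13, 1.10 and 1.08.

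Summed over the 17 enzymes, the level in the H2030-labelled empty-vector library was the lowest of the 6 libraries. It was 417.9 FPKM, against 583.9 FPKM in the malin library of the pair. A549 had 651.7 and 630.5 FPKM and H1299 736.7 and 794.7 FPKM. Set against the empty-vector libraries of the other lines, that library was below both for 14 of 17 enzymes (23.3% of all genes tested), and with malin the count was 9 of 17 (24.1% of all genes). The median ratio of its enzyme levels to the mean of A549 and H1299 was 0.553 with the empty vector and 0.778 with malin. The H2030-labelled empty-vector library was the lowest of all 6 for 13 of 17 enzymes, where this held for 13.1% of genes tested. For 6 of the 27 members that library was the lowest and malin was also higher by 1.5-fold in the pair, against 1.76% of genes tested. The order of the enzymes by level was alike between libraries, with a Spearman's rho over the 17 of 0.708 to 0.995. This is across genes that share libraries and is given as a description.

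**Figure D4:**
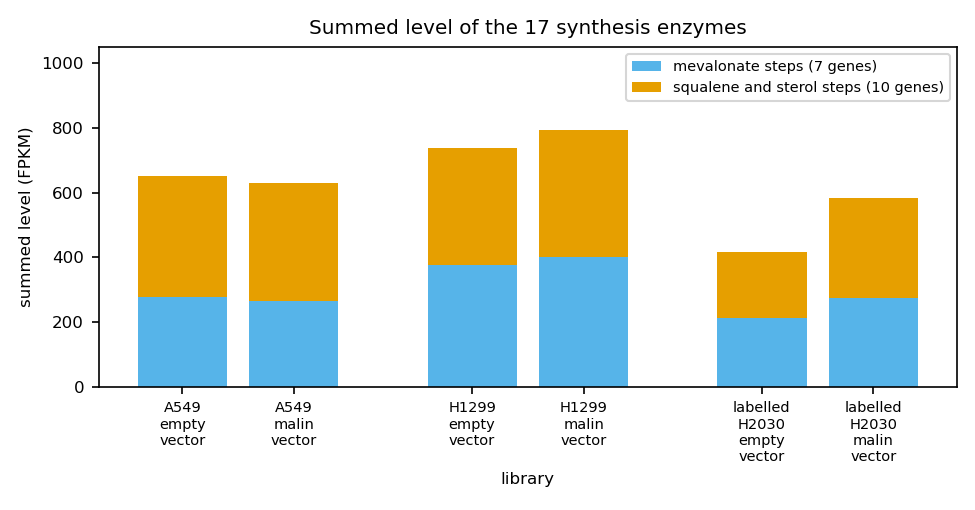
Summed FPKM of the 7 mevalonate-step genes (blue) and the 10 squalene and sterol-step genes (orange) in each library, with bars starting at 0. The H2030-labelled empty-vector library has the shortest bar (417.9 FPKM), and its malin partner (583.9 FPKM) stays below both libraries of A549 and of H1299.

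Among the SREBP regulators, INSIG1 had the largest mean log2 difference of all members over the 3 lines, though not the largest in H1299. Its level was 14.6 FPKM (empty vector) and 20.3 FPKM (malin) in A549, at 36.0 and 41.8 FPKM in H1299, and at 16.1 and 64.5 FPKM in the H2030-labelled pair. Malin was the higher library in each line, and the groups of 3 overlapped because the lines differ in level. The ratios were 1.39 (interval 1.21 to 1.59), 1.16 (interval 1.06 to 1.27) and 3.998 (interval 3.55 to 4.51). The mean log2 difference was 0.86 ± 0.94 (SD, n = 3 pairs), with an exact paired permutation p of 0.25 (two-sided), the smallest that 3 pairs allow, and it was 0.33 without the H2030-labelled pair. INSIG1 lies on chromosome 7 of GRCh38.p14, from 155297878 to 155310235.

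INSIG2, the other INSIG protein, did not share this pattern. It stood at 6.37 and 6.82 FPKM in A549, 9.02 and 9.34 FPKM in H1299, and 9.97 and 7.93 FPKM in the H2030-labelled pair, where the ratio was 0.795 (interval 0.649 to 0.969). Within a library, where a ratio of FPKM is free of the library total, INSIG1 was 2.30 times INSIG2 with the empty vector and 2.98 times with malin in A549, 3.99 and 4.47 times in H1299, and 1.62 and 8.13 times in the H2030-labelled pair. The INSIG1 to INSIG2 ratio was therefore lowest and highest, of the 6, in the 2 libraries of the same pair.

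Of the genes of the SREBP factors themselves, SREBF2 differed little between vectors and SREBF1 differed in both directions. SREBF2, whose product favours cholesterol genes, stood at 22.0 and 23.0 FPKM in A549, 31.2 and 34.2 FPKM in H1299, and 29.4 and 33.1 FPKM in the H2030-labelled pair. Its log2 differences of 0.06, 0.13 and 0.17 had the smallest spread over lines of the 27 members (SD 0.055; mean 0.12, limma adjusted p = 0.927). SREBF1, whose product favours fatty acid genes, stood at 32.7 and 24.8 FPKM in A549, 41.2 and 45.6 FPKM in H1299, and 13.3 and 11.4 FPKM in the H2030-labelled pair, so it was lower with malin in A549 and that pair and higher in H1299. Its ratios of 0.759, 1.11 and 0.856 each had an interval that excluded 1, and its log2 ratio in A549, -0.38, was the lowest of the 27 members there. SREBF1 was 1.49 and 1.08 times SREBF2 in A549 and 1.32 and 1.34 times in H1299, but 0.453 and 0.344 times in the H2030-labelled pair. SCAP, the escort, stood at 15.1 and 15.5 FPKM, 16.5 and 15.4 FPKM, and 23.4 and 26.1 FPKM.

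**Figure D5:**
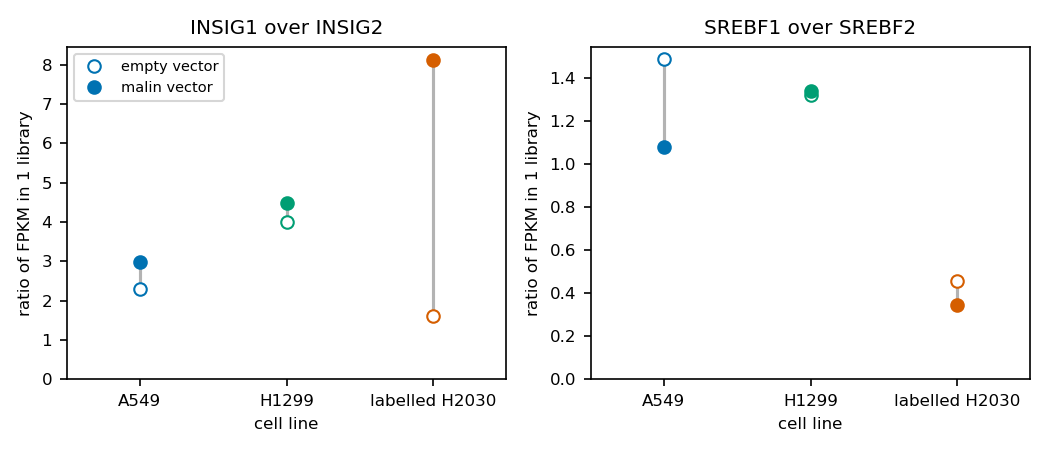
Ratio of INSIG1 to INSIG2 (left) and of SREBF1 to SREBF2 (right), both in FPKM within 1 library, by cell line, with open circles for the empty vector and filled circles for malin. The H2030-labelled pair spans 1.62 to 8.13 on the left and is the 1 line below 1 on the right.

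Of the transport genes, STARD4, a cytosolic sterol carrier and a known SREBP target, differed as the enzymes did in the H2030-labelled pair. It stood at 5.28 and 10.8 FPKM there, a ratio of 2.05 (interval 1.74 to 2.44), at 15.5 and 15.6 FPKM in H1299, and at 7.69 and 5.92 FPKM in A549, a ratio of 0.77 (interval 0.655 to 0.903). The direction in A549 was thus opposite. NPC1 and NPC2 together pass cholesterol out of the lysosome. NPC1 stood at 24.1 and 29.1 FPKM in A549, 19.5 and 18.5 FPKM in H1299, and 15.01 and 11.5 FPKM in the H2030-labelled pair, and NPC2 at 84.1 and 101.6 FPKM, 158.8 and 161.8 FPKM, and 50.5 and 54.4 FPKM. Both were higher with malin in A549, by ratios of 1.21, whereas in the H2030-labelled pair NPC1 was lower (ratio 0.766, interval 0.684 to 0.86) and NPC2 had an interval that included 1.

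The LXR-regulated genes were low. ABCA1, which loads cholesterol onto apolipoproteins, stood at 2.66 and 2.86 FPKM in A549, 3.03 and 2.27 FPKM in H1299, and 0.09 and 0.13 FPKM in the H2030-labelled pair, the last from an estimated 8 and 14 fragments. In H1299 the ratio was 0.749 (interval 0.632 to 0.888). ABCG1, which exports cholesterol to mature lipoprotein particles, was instead highest in the H2030-labelled pair, at 0.44 and 0.30 FPKM in A549, 0.03 and 0 in H1299, and 1.33 and 1.28 FPKM in the H2030-labelled pair. The H1299 values correspond to an estimated 1 and 0 fragments, so no ratio is given. MYLIP, a ubiquitin ligase that removes lipoprotein receptors, stood at 1.55 and 1.04 FPKM, 4.22 and 5.60 FPKM, and 3.67 and 5.21 FPKM, and each of its 3 intervals included a ratio of 1.

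Levels also differed between lines. Both H2030-labelled libraries lay below the other 4 for 13 of the 27 members (16.7% of all genes tested) and above them for 2 (37.5%), while both A549 libraries lay below for 5 (33.5%) and above for 8 (18.6%), and both H1299 libraries below for 1 (27.1%) and above for 10 (22.5%). The difference was tested in the same fit with the vector as a term, so that the 2 libraries of a line, which differ in vector, served as its replicates. For the H2030-labelled pair the heading of the malin column names another line. Whether its 2 libraries are replicates of 1 line is therefore not known, which limits the tests of that pair. Between lines a large share of all genes was called, and a scaling by the median of ratios removes a log2 shift of 0.39 between the H2030-labelled pair and A549, of 0.29 between that pair and H1299, and of 0.10 between H1299 and A549. Against A549, 14 of the 27 members were lower in the H2030-labelled pair and 5 higher (limma, adjusted p under 0.05), where 22.1% of all genes were lower and 45% higher. With the median-of-ratios scaling the counts were 17 and 2. The share of all genes under that scaling is not given here, so the change in counts is not read as particular to the members. Against H1299, 17 were lower and 3 higher, where 23.8% of all genes were lower and 40.9% higher, and 19 and 1 with that scaling. The median log2 difference of the members was -0.42 against A549 and -0.65 against H1299, while that of all genes was 0.29 and 0.22.

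NSDHL and DHCR7 were lower in the H2030-labelled pair than in A549 by log2 differences of -1.08 ± 0.13 and -0.89 ± 0.14 (limma's SE; adjusted p = 0.00068 and 0.00227). SREBF1 was lower than in A549 by -1.15 ± 0.15 (limma adjusted p = 0.00092) and than in H1299 by -1.74 ± 0.15 (limma adjusted p = 0.000204). ABCA1 was lower than in H1299 by -1.71 ± 0.16 (limma adjusted p = 0.000292). TM7SF2 went the other way, with 17.4 and 16.6 FPKM in that pair against 4.47 to 7.78 FPKM in the other 4 libraries, a log2 difference of 1.56 ± 0.16 from A549 (limma adjusted p = 0.000422). It was higher than A549 under both scalings. SCAP was higher than in A549 by 0.66 ± 0.11 (limma adjusted p = 0.00305) with the deposited values and was not called with the median-of-ratios scaling. EBP did not pass against either line with the deposited values (limma adjusted p = 0.578 and 0.943). With the median-of-ratios scaling it was called lower than in A549 (-0.47, limma adjusted p = 0.0202) and was not called against H1299.

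Between H1299 and A549, 11 members were higher in H1299 and 0 lower (limma, adjusted p under 0.05), where 34.5% of all genes were higher and 27.2% lower. With the median-of-ratios scaling 9 were higher and 4 lower, and when the H2030-labelled pair was left out of the fit 14 were higher and 8 lower. The shares of all genes under these 2 settings are not given here. ACAT2, MVD and LSS had log2 differences of 1.16 ± 0.15, 1.09 ± 0.13 and 1.43 ± 0.14 (limma adjusted p = 0.00139, 0.0008 and 0.000488). LSS stood at 12.1 and 11.6 FPKM in A549 and 32.0 and 35.2 FPKM in H1299, so SQLE was 4.90 and 5.24 times LSS in A549 and 1.56 and 1.49 times in H1299. NPC2 and MYLIP were higher in H1299 by 0.79 ± 0.098 and 1.36 ± 0.21 (limma adjusted p = 0.00104 and 0.00243). INSIG1 passed by little (1.12 ± 0.40, limma adjusted p = 0.0493) and was not called with the median-of-ratios scaling.

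Other genes of the pathway were read from 5 further lists, and 0 of their genes passed over the 3 lines (limma, adjusted p of at least 0.927; 1 gene, NR1H3, had an unadjusted p under 0.05). Of 11 genes of fatty acid synthesis that SREBP also drives, 2 were higher by at least 1.5-fold in the H2030-labelled pair (4.28% of all genes) and 0 lower (7.33%), with a median log2 ratio of 0.19 against -0.027 over all genes. ACLY, which makes cytosolic acetyl-CoA, stood at 90.0 and 151.3 FPKM there, SCD, the fatty acid desaturase, at 84.8 and 144.8 FPKM, and FASN, the fatty acid synthase, at 59.4 and 89.3 FPKM. In A549 SCD stood at 207.2 and 155.5 FPKM and in H1299 at 338.2 and 390.8 FPKM, so it was lower with malin in A549 and higher in the other lines. ACSS2, an acetyl-CoA synthetase, was at 6.54 and 7.59 FPKM in the H2030-labelled pair.

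The 10 genes of SREBP processing and sterol-dependent degradation had medians of 0.062 (A549), 0.034 (H1299) and -0.055 (the H2030-labelled pair), with 0 past 1.5-fold in any line. SEC23A, a coat protein of vesicles leaving the endoplasmic reticulum, had 39.6 and 54.7 FPKM in the H2030-labelled pair. SEC24A and SAR1A, of the same coat, were at 11.03 and 14.2 FPKM and 45.7 and 50.9 FPKM. The 10 genes of the non-sterol branches had medians of 0.013, -0.079 and 0.059, again with 0 past 1.5-fold. FNTB, a farnesyltransferase subunit, was at 11.2 and 7.73 FPKM in A549, and its partner FNTA at 36.6 and 27.2 FPKM in the H2030-labelled pair. PGGT1B, a subunit of a prenyl transferase, was at 15.3 and 11.4 FPKM and PDSS2, of coenzyme Q side chain synthesis, at 7.22 and 8.34 FPKM there.

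Of 14 tested genes of sterol storage, transport and lipoprotein receptors, 11 were higher (45.9% of all genes) and 3 lower (53.2%) in the H2030-labelled pair, with a median of 0.13. SCARB1, the receptor for high-density lipoprotein, was at 17.01 and 26.0 FPKM, LRP8, a receptor of the same family as VLDLR, at 3.12 and 5.13 FPKM, and STARD3, a late endosomal sterol binding protein, at 14.7 and 15.5 FPKM. On the FPKM+1 scale VLDLR was the 1 gene of the list past 1.5-fold there, at 3.86 and 2.14 FPKM, while SCARB1 and LRP8 lay just under it with log2 ratios of 0.58 and 0.57. Among 5 tested LXR and oxysterol genes, 4 were lower (53.2% of all genes) and 1 higher (45.9%) in that pair, with a median of -0.50. NR1H3, which encodes LXR alpha, was lower with malin in each line, at 5.39 and 4.19 FPKM in A549, 3.78 and 3.19 FPKM in H1299, and 7.68 and 3.73 FPKM in the H2030-labelled pair (mean log2 difference -0.46, limma unadjusted p = 0.0313, adjusted p = 0.927). The oxysterol hydroxylases were below the filter, CYP27A1 at 1.06 and 0.22 FPKM and CYP7B1 at 2.12 and 1.08 FPKM in the H2030-labelled pair.

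The lines did not rank the members alike. Over the 27 members, Pearson's r of the log2 ratios was -0.20 for A549 with H1299, 0.29 for A549 with the H2030-labelled pair, and 0.23 for H1299 with that pair, and Spearman's rho was -0.16, 0.066 and 0.13. Without INSIG1 the 3 values of r were -0.35, -0.017 and 0.13. These are correlations across genes, which are not independent replicates, and are given as a description.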

How the data were processed

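RNA of 6 libraries, from 3 cell lines with empty vector or malin, was measured by sequencing. The deposited values are FPKM per gene, 1 table per library, per the file headers. Tools listed by the submitters' processing notes are STAR, Cufflinks, cutadapt and FastQC, with the build hg38. Their versions and roles are not given in the sources used here. The analysis used 12182 protein-coding genes with a mean of at least 1 FPKM, as log2(FPKM+1), with limma 3.58.1 in R 4.3.3 (terms for line and vector, intensity trend, Benjamini-Hochberg adjustment over all genes). FPKM are not counts, so no count model was fitted. The line is the pairing of the 2 vectors, because both libraries of a pair carry the same cell line label, and it was kept as a block. Within a line there was no test. Low FPKM values are spaced by what 1 fragment is worth, which gave an estimate of depth; 80.9% to 82.6% of these values per library fell within 0.2 of a whole fragment. The estimate gave the 95% exact binomial intervals, which assume GENCODE transcript lengths. These were matched by RefSeq accession, with the median taken over the transcripts of a gene. Date-like or blank symbols (37) were looked up by Entrez identifier, and 35 were replaced. Members and lists were chosen with earlier results of these data known. The members are all accounted for, and up to 4 genes of each further list were named by absolute mean log2 difference. Isoforms cannot be separated in these tables. Protein sequences were not used here. Alternatives covered the pseudocount, the filter, the scaling, the gene classes, the model terms and leaving out each pair. Some genes of the further lists are not reported here.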

Additional observations from a re-analysis of the deposited data

Results flagged for a closer look

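For 6 members the ratio of FPKM with malin to FPKM with the empty vector had a counting interval above 1 in one line and below 1 in another. With 1 library per line and vector, the difference between lines was not tested. The share of all genes with such opposite intervals is not given here, so the count is not read as particular to the members. In A549 the intervals of ACAT2, FDPS and FDFT1 ended just below 1, at 0.988, 0.998 and 0.999. ACAT2, the thiolase, had ratios of 1.06 in H1299 and 1.42 in the H2030-labelled pair, but 0.917 in A549. FDPS, the farnesyl diphosphate synthase, had 1.40 in the H2030-labelled pair and 0.921 in A549. For FDFT1, squalene synthase, the ratios were 1.06 in H1299, 2.08 in the H2030-labelled pair and 0.932 in A549. STARD4, the sterol carrier, had 2.05 in the H2030-labelled pair and 0.77 in A549. SREBF1 was the 1 gene of the 6 with a ratio above 1 in H1299 alone, at 1.11, against 0.759 in A549 and 0.856 in the H2030-labelled pair. NPC1, the lysosomal cholesterol transporter, had the opposite order to the enzymes, with 1.21 in A549 and 0.766 in the H2030-labelled pair.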

How the results depend on the processing

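Over the 3 lines 0 members were called under each alternative run, including the fit with no replicate block for the line (0 members called). The fit with the block already called no gene at all, so this comparison says little about the pairing. The count of members past 1.5-fold in the H2030-labelled pair stayed at 6 to 8. Leaving out each pair in turn turned the sign of 12 mean log2 differences, with ranges of -0.10 to 0.042 for MVK, -0.09 to 0.072 for MVD, -0.19 to 0.091 for TM7SF2, -0.12 to 0.064 for ABCA1, -0.023 to 0.28 for ACAT2, -0.015 to 0.28 for FDPS, -0.0053 to 0.56 for FDFT1, -0.13 to 0.22 for HSD17B7, -0.13 to 0.065 for INSIG2, -0.027 to 0.09 for SCAP, -0.16 to 0.46 for STARD4 and -0.21 to 0.10 for NPC1. The mean of INSIG1 ran from 0.33 to 1.19. The A549 median was -0.020 with no filter and -0.0013 with median-of-ratios scaling. Members lower in H1299 than in A549 numbered 0 with the settings used, 1 with a pseudocount of 5, 1 with no filter, 2 with a mean of at least 5 FPKM, 4 with median-of-ratios scaling, 1 with quantile normalization, 1 with no vector term and 8 without the H2030-labelled pair. With median-of-ratios scaling 2 members were higher in the H2030-labelled pair than in A549 and 1 than in H1299. The shares of all genes under these settings are not given here, and the cause of these shifts was not tested. Depth limits ABCA1 in the H2030-labelled pair and ABCG1 in H1299.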
